A study of Mus musculus with 16 samples.

Results

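In mouse C3H10T1/2 cells carrying a histone H3 transgene, 10 genes were much higher in 3 groups than in all others. The 3 groups carried H3.3 G34W K36R, H3.1 G34W or H3.1 WT. The 10 genes are Theg, Rnf128, D330045A20Rik, Itih2, Tmtc2, Pkp2, Rps6ka6, Arhgef5, Kcnj15 and Pon3. High and low are relative to each gene: Theg peaked at 146 in the 3 groups, while Arhgef5 reached 296 outside them. They were chosen on these values: the lowest of the 6 libraries of those 3 groups had to be at least 50 and at least 4 times the highest of the other 10 libraries plus 1, and 13 families of symbols (among them histones, collagens and cadherins) were left out. The rule was met by 10 of the 20325 genes that the authors deposited, and 1 more, the histone gene Hist1h2ao, was left out by its symbol. All 10 had a mean of at least 10, as had 12670 genes in all, and these were the genes tested below. Some of the 10 passed that filter only through the 6 high libraries. Their means over the other 10 libraries were 0 (Theg), 8.80 (D330045A20Rik), 2.30 (Tmtc2), 6.38 (Rps6ka6) and 4.75 (Kcnj15). None of the 10 genes is among the 180 genes of a second, smaller table that the authors deposited.

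C3H10T1/2 is a line of mesenchymal stem cell type that grows as fibroblast-like cells. The 16 polyadenylated RNA libraries formed 8 groups of 2, each group expressing 1 transgene: H3.3 G34W K36R, H3.1 G34W, H3.1 WT, H3.3 G34W K27R, H3.3 G34W, H3.3 G34R, H3.3 K27R and H3.3 WT. A change is written as the residue of H3, its position and the residue that took its place, so that H3.3 G34W K36R carries a pair of changes on the same tail. Every group received its transgene by lentivirus over 2 days, then spent 4 days in 1.5 µg/ml of puromycin to kill cells without it, and still had its own H3 genes; no cells without a transgene were analysed here, and the promoter that drives the transgene is not given in the sources used here. Nothing in the labels says that the replicates of a group were grown apart. A p-value here therefore sets a difference against the spread of libraries, which may be technical only.

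The series asks what changes at glycine 34 of H3.3 do to transcription. As background, lysine 36 methylation of H3 marks transcribed chromatin and hinders PRC2, the complex that methylates lysine 27 and holds genes silent, and glycine 34 lies next to lysine 36 on the tail and influences its methylation in cis. H3.1 is the form deposited during replication, while H3.3 is deposited throughout the cell cycle, also at active genes and enhancers. Changing lysine 36 or lysine 27 to arginine removes a site of methylation from the transgenic tail.

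The 10 genes have no common pathway in the lists used here, and they encode proteins of quite different kinds. Pkp2 encodes plakophilin 2, a desmosomal plaque protein, and Itih2 a heavy chain of the inter-alpha-trypsin inhibitors, which binds hyaluronan. Arhgef5 encodes a guanine nucleotide exchange factor, Rps6ka6 the kinase RSK4 and Rnf128 the transmembrane ubiquitin ligase GRAIL, known from T cell anergy. Tmtc2 encodes an enzyme of the endoplasmic reticulum that adds mannose to cadherins, Kcnj15 an inwardly rectifying potassium channel, and Pon3 a lactonase of the paraoxonase family. Theg is a gene of spermatids, and D330045A20Rik, which RefSeq names Radx, encodes a protein that binds single-stranded DNA at stalled replication forks.

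For 8 of the 10 genes RefSeq (GRCm38.p6) gave a promoter. The deposited values were made on mm9, so these windows are shown as sequence only and no value was read at their coordinates. The 250 bases upstream of the start are printed for 4 genes: Arhgef5, which differed most among the groups in which the genes were low; Itih2, which rose most with H3.3 G34W K27R over H3.3 G34W; and the adjacent pair D330045A20Rik and Rnf128. They run 5′ to 3′ on the strand of the gene, and capitals mark CG dinucleotides, where PRC2 is known to gather when they are dense. The windows are chr6:43265394-43265643 on the plus strand, chr2:10130684-10130933 on the minus strand, chrX:139480117-139480366 on the plus strand and chrX:139610370-139610619 on the plus strand, in the order below.
Arhgef5: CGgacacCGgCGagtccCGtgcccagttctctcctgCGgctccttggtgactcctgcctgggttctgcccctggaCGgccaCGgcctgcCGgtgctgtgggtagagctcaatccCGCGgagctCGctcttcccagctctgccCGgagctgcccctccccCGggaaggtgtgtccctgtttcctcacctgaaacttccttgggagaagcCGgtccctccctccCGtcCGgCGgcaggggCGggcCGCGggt
Itih2: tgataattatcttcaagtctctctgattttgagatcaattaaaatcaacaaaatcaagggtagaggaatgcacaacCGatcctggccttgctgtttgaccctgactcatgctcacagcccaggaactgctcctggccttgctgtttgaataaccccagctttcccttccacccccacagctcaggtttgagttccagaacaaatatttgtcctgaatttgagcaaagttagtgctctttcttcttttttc
D330045A20Rik: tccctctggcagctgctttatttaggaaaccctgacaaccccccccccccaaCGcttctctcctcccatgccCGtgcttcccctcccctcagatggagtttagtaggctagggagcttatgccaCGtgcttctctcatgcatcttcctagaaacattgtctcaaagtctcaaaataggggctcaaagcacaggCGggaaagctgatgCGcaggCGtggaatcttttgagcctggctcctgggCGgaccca
Rnf128: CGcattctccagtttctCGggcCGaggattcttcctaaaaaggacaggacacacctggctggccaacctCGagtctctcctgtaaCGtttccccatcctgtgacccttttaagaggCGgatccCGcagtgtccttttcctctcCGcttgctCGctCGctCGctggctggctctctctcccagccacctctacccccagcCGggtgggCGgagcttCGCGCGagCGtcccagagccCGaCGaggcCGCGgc

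The promoters of Rnf128 and Arhgef5 were rich in CG, with 21 and 20 such dinucleotides, while Itih2 and Kcnj15 had 1 each. D330045A20Rik had 7, Pon3 6, and Tmtc2 and Rps6ka6 4 each. The median of the 8 was 5, against 16 over 10037 tested genes with a promoter and 6 over 27025 genes in all. The ratio of observed to expected CG was at least 0.6 in 2 of 8 (25%), against 67.5% of tested genes and 34.5% of all genes. RefSeq lists a second window for Rps6ka6, with 12 such dinucleotides, which gives a median of 6.5; the first listed was used for every gene. These are descriptions of 8 sequences with no test.

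The promoters were searched on both strands for 6 motifs, none of which contains another. GGGCGG (GC box) was in 5 of 8 promoters, against 59.4% of tested and 32.9% of all genes. TATAAA was in 1 (Rps6ka6; 6.5% and 13%), CCAAT in 1 (Rps6ka6; 37.1% and 34.5%), TGACTCA in 1 (Itih2; 3.14% and 4.43%), CACGTG in 1 (D330045A20Rik; 8.39% and 6.05%) and TGACG in 0 (27.2% and 17.9%), the shares being those of tested genes and of all genes. No motif other than the GC box was in more than 1 of the 8 windows. With the second window of Rps6ka6, the GC box was in 6 of 8 and TATAAA and CCAAT in 0.

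The libraries stood apart in other ways that follow the same line. The 6 libraries in which the genes were high held an estimated 34.8 to 49.1 M reads and the other 10 held 26.02 to 33.8 M, so depth and group cannot be told apart, and 3 reads, taken as the floor of detection, were worth 2.27 to 3.74 units. Markers of fibroblasts and stromal stem cells, 9 of 10 of them tested, summed to 177314 to 360436 units in the 6 libraries and 205139 to 318114 in the 10. Vim made up most of that sum, at 133797 to 284797 and 130542 to 229394 units. Eng lay below without overlap, at 353 to 1020 and 1057 to 2367 units, and the other tested markers overlapped. The median log2 difference of the tested markers, the 6 libraries minus the 10, was -0.73. Of the other cell types, endothelial markers differed without overlap in their sum, at 114 to 459 units in the 6 libraries and 962 to 3784 in the 10, with 4 of 10 tested and Cldn5 at 0 in every library. Of those 4 Tek divided without overlap, at 59.6 to 395 and 794 to 3037 units, and Vwf, Erg and Cdh5 overlapped. Epithelial markers summed to 60.1 to 97.9 and 28.8 to 979.7 units with 3 of 10 tested, and germ cell genes to 57.6 to 245 and 78.8 to 147.8 units with 4 of 12 tested and Dazl and Hormad1 at 0. Their part in the results was not tested, and in these bulk samples fewer cells of a type and less RNA per cell cannot be told apart. The values of the 10 genes are the deposited median-normalised gene read estimates, called units here.

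**Figure D1:**
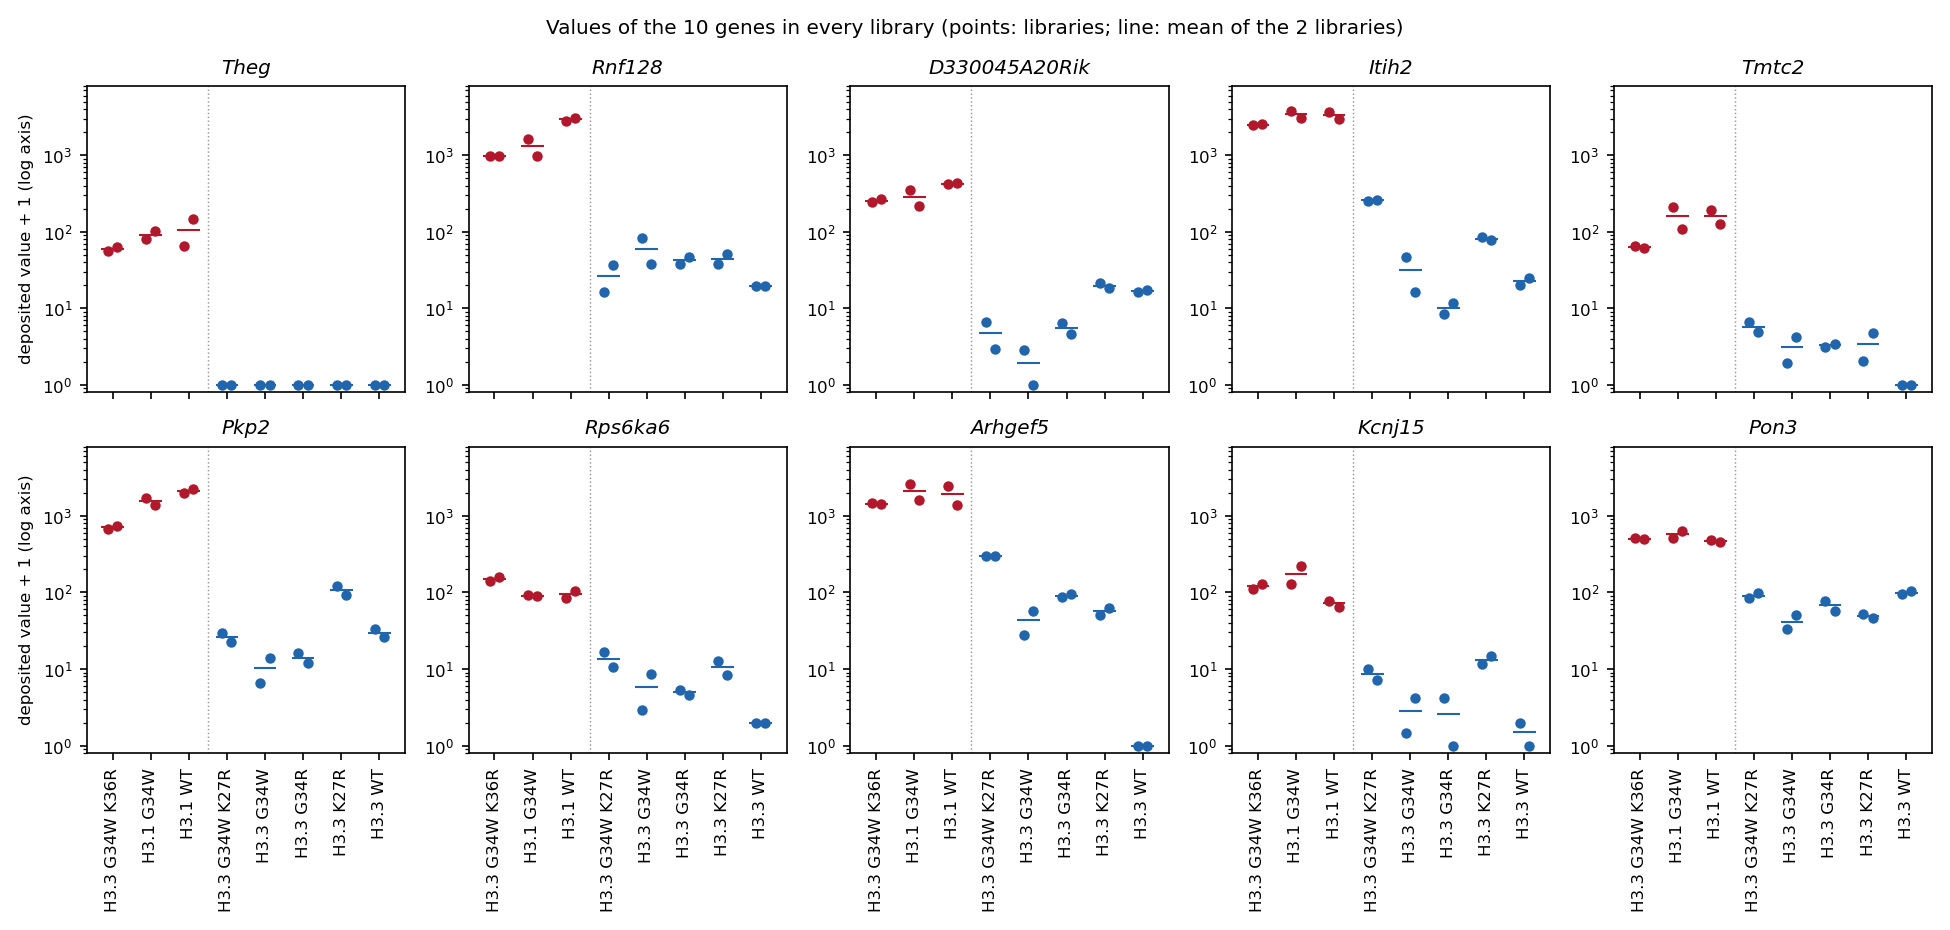
Deposited value plus 1 (log axis) of each of the 10 genes in every library; points are libraries, lines are means of 2 libraries, red marks the 3 groups the rule asked to be high and blue the other 5. Theg lies at 0 in all 10 blue libraries, and Arhgef5 at 0 only in those of H3.3 WT.

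Itih2 had 2443 and 2536 units with H3.3 G34W K36R, 3765 and 3084 with H3.1 G34W and 3647 and 2947 with H3.1 WT. With the other transgenes it had 248 and 263 units (H3.3 G34W K27R), 46.0 and 15.3 (H3.3 G34W), 7.55 and 10.9 (H3.3 G34R), 84.0 and 77.3 (H3.3 K27R) and 19.4 and 24.2 (H3.3 WT). The 6 high libraries lay within 1.54 times of each other, while the other 10 fell into steps, H3.3 G34W K27R highest, H3.3 K27R next and H3.3 G34R lowest. The mean of the 6 was 38.6 times that of the 10, a ratio that the rule itself fixed to be large, as it did for each gene here.

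Pkp2 had 681 and 727 units with H3.3 G34W K36R, 1729 and 1389.8 with H3.1 G34W and 2009 and 2251 with H3.1 WT. It had 28.8 and 21.4 units with H3.3 G34W K27R, 5.63 and 13.1 with H3.3 G34W, 15.1 and 10.9 with H3.3 G34R, 119 and 91.0 with H3.3 K27R and 31.9 and 25.2 with H3.3 WT. Its 3 high groups did not overlap, H3.1 WT being highest and H3.3 G34W K36R lowest, and among the low groups H3.3 K27R stood above the rest.

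Arhgef5 had 1455 and 1426 units with H3.3 G34W K36R, 2631 and 1605 with H3.1 G34W and 2474 and 1389 with H3.1 WT. It had 294 and 296 units with H3.3 G34W K27R, 27.2 and 56.9 with H3.3 G34W, 85.2 and 93.0 with H3.3 G34R, 49.97 and 62.3 with H3.3 K27R, and 0 in both libraries of H3.3 WT. H3.1 WT overlapped the other 2 high groups, and H3.3 G34W K36R lay below H3.1 G34W; among the low ones H3.3 G34W K27R was highest and H3.3 WT had no read.

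Rnf128 had 969 and 968 units with H3.3 G34W K36R, 1632 and 983 with H3.1 G34W and 2824 and 3089.7 with H3.1 WT. It had 15.5 and 36 units with H3.3 G34W K27R, 81.7 and 37.2 with H3.3 G34W, 36.7 and 45.9 with H3.3 G34R, 37.5 and 49.9 with H3.3 K27R, and 18.4 in each library of H3.3 WT. H3.1 WT stood above the other 2 high groups, and among the low groups H3.3 WT and H3.3 G34W K27R lay below H3.3 G34W, H3.3 G34R and H3.3 K27R without overlap. For H3.3 G34W K27R the gap was narrow, its higher library having 36 units (37 reads) and the lower of H3.3 G34R 36.7 units (34 reads).

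D330045A20Rik had 245 and 264 units with H3.3 G34W K36R, 348 and 216 with H3.1 G34W and 422 and 426 with H3.1 WT. It had 5.55 and 1.95 units with H3.3 G34W K27R, 1.88 and 0 with H3.3 G34W, 5.39 and 3.62 with H3.3 G34R, 20.2 and 17.4 with H3.3 K27R and 15.5 and 16.5 with H3.3 WT. Among the low groups H3.3 K27R and H3.3 WT lay above the 3 groups that carry a change at glycine 34.

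Pon3 was the most even gene. It had 509 and 493 units with H3.3 G34W K36R, 515 and 627 with H3.1 G34W and 479.9 and 449 with H3.1 WT, so the 6 libraries lay within 1.39 times of each other. It had 83.2 and 96.0 units with H3.3 G34W K27R, 31.9 and 49.2 with H3.3 G34W, 76.5 and 56.8 with H3.3 G34R, 51.0 and 44.9 with H3.3 K27R and 93.9 and 103.6 with H3.3 WT. It alone of the 10 genes was highest in H3.3 WT among the low groups, and the ratio of its means, 7.45, was the smallest of the 9 genes that were above 0 in some low library.

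Theg was the most sharply divided gene. It had 54.8 and 62.6 units with H3.3 G34W K36R, 78.8 and 102 with H3.1 G34W and 64.4 and 146 with H3.1 WT, and no read in any of the other 10 libraries. The lowest of the 6 was at least 14.7-fold higher than the largest value that 3 reads in 1 library would give there.

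The 3 remaining genes are given by their ranges. Tmtc2 ran from 59.9 through a median of 116 to 211 units in the 6 libraries and from 0 through 2.29 to 5.55 in the 10. Rps6ka6 ran from 84.2 through 97.4 to 156 units in the 6 and from 0.968 through 5.90 to 15.5 in the 10. Kcnj15 ran from 64.5 through 120.1 to 220.2 units in the 6 and from 0 through 3.24 to 13.7 in the 10. Rps6ka6 was the only gene of the 10 that was highest in H3.3 G34W K36R, at 139.9 and 156 units, against 91.2 and 87.8 with H3.1 G34W and 84.2 and 104 with H3.1 WT.

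The library with the highest value was of H3.1 G34W for 5 genes, of H3.1 WT for 4 and of H3.3 G34W K36R for 1, and the lowest of the 6 was of H3.3 G34W K36R for 5 genes, of H3.1 WT for 4 and of H3.1 G34W for 1. Among the low groups the highest library was of H3.3 G34W K27R for 4 of the 9 genes above 0, of H3.3 K27R for 3, and of H3.3 G34W and H3.3 WT for 1 each.

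The rule cut close to some genes. Just inside its ratio of 4 lay Pon3 at 4.30, Kcnj15 at 4.39, Arhgef5 at 4.68 and Rps6ka6 at 5.09, and just outside lay Eno3 at 3.70, Eda at 3.56, Mbnl3 at 3.19 and Slc38a1 at 2.93. Just above the lowest value of 50 lay Theg at 54.8, Tmtc2 at 59.9, Kcnj15 at 64.5 and Rps6ka6 at 84.2 units. Arhgap36 (30.3), Lancl3 (30.3), Igsf11 (13.7) and Galnt13 (9.78) passed the ratio but not that value. Arhgap36 reached 1067 units in 1 of the 6 libraries.

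What the rule did not use are differences within the 3 high groups and within the 5 low groups, and these were tested with limma on log2(value + 1) in a fit over all 12670 genes, two-sided and with Benjamini-Hochberg adjustment. The H3.3 WT pair showed no difference beyond sampling noise in 2745 genes whose estimates were whole (chi-square test, p = 0.937), although it did over all 12435 genes (chi-square test, p = 2.2e-63), and it was averaged to 1 sample. Other pairs were much further apart. Chi-square per degree of freedom was 225.5 for H3.1 WT, 214.8 for H3.1 G34W and 260 for H3.3 G34W, against 1.23 to 5.78 for the remaining pairs. The fit gives each gene 1 spread over all groups, so its p-values do not reflect this inequality.

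No change of the genes with G34W on H3.1 was detectable. In H3.1 G34W over H3.1 WT no gene of the 10 was called at an adjusted p under 0.05, and 0 of all genes tested were (0%); at an unadjusted p under 0.05 there were 1 of the 10, Rnf128, and 2015 of all. The 10 log2 fold changes ran from -1.22 (Rnf128) to 1.24 (Kcnj15) with a median of -0.04, against 0.00 over all genes. The SE of these fold changes ran from 0.25 for Pon3 to 0.68 for Kcnj15.

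Of the 10 genes, which the rule chose to be high with H3.3 G34W K36R, 2 were lower there than with H3.1 WT. In H3.3 G34W K36R over H3.1 WT, Pkp2 was lower at 704 ± 32.8 against 2129.9 ± 171 units (SD, n = 2 libraries each), a log2 fold change of -1.59 ± 0.35 (SE, limma adjusted p = 0.0138). Rnf128 was lower at 969 ± 0.862 against 2957 ± 188 units (SD, n = 2 libraries each; log2 fold change -1.61 ± 0.44, limma adjusted p = 0.0278). These were 2 of the 10 genes called and no gene was called higher, where 25.4% of all genes were called and 12% were called lower, so the share of the 10 is near the background. The median over the 10 was -0.56, against 0.00 over all genes. Tmtc2, at 62.3 ± 3.27 against 158 ± 47.9 units, did not pass (log2 fold change -1.30 ± 0.55, limma adjusted p = 0.102). Leaving out 1 library of the compared groups ended the call of Rnf128 in all 4 cases and that of Pkp2 in 3, all but H3.1 WT replicate 1 (adjusted p 0.0522 to 0.133 for Rnf128 and up to 0.0977 for Pkp2).

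In H3.3 G34W K36R over H3.1 G34W none of the 10 was called, against 3.17% of all genes; at an unadjusted p under 0.05 there were 2, Pkp2 and Tmtc2, and 2096 of all genes. The log2 fold changes of 9 of the 10 were below 0, that of Rps6ka6 being 0.72 ± 0.50, and the median was -0.47, against -0.01 over all genes. Pkp2 had -1.14 ± 0.35 (limma adjusted p = 0.124) and Tmtc2 -1.27 ± 0.55 (limma adjusted p = 0.285). H3.1 WT and H3.1 G34W each serve in 2 of these 3 comparisons, which therefore share libraries.

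**Figure D2:**
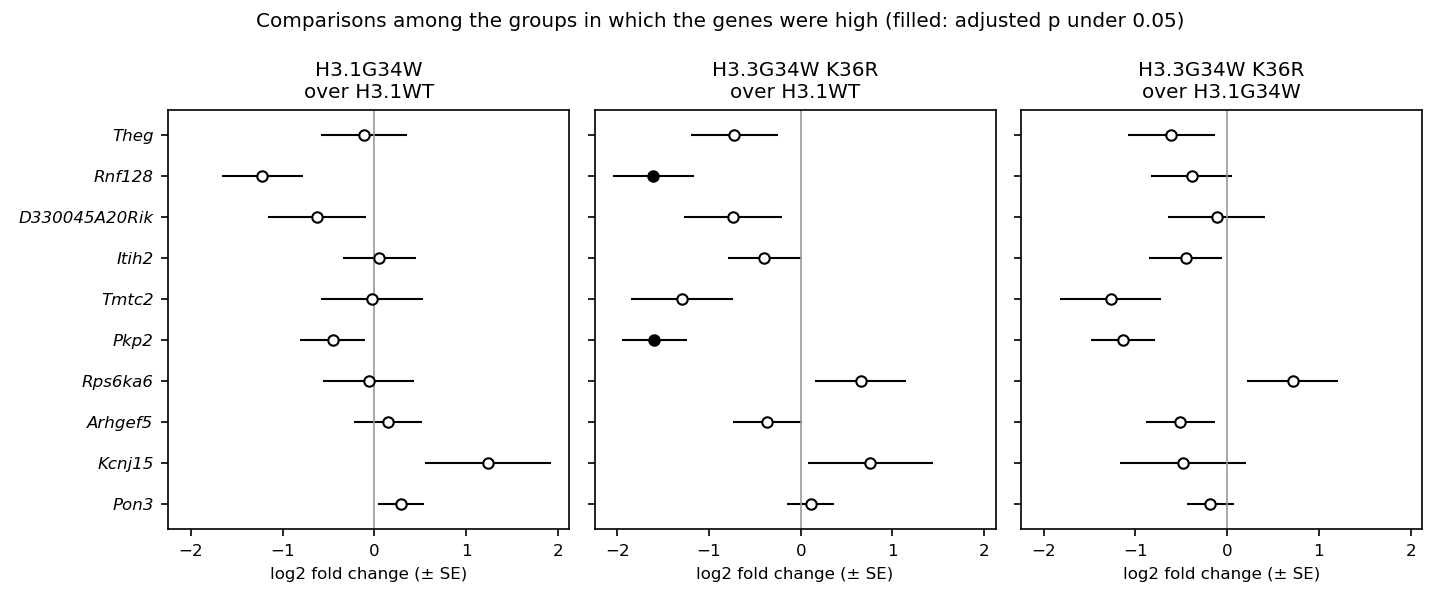
Log2 fold changes (points) with their SE (bars) of the 10 genes in the 3 comparisons among the groups in which they were high; filled points have a limma adjusted p under 0.05. Pkp2 and Rnf128 in H3.3 G34W K36R over H3.1 WT, at -1.59 and -1.61, are the filled points.

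Of the comparisons among the groups in which the genes were low, that of H3.3 G34W K27R over H3.3 G34W had the most calls. In it 4 of the 10 genes were called higher and none lower, where 21.6% of all genes were called and 9.24% called higher. Itih2 rose to 256 ± 10.1 units with H3.3 G34W K27R, against 30.6 ± 21.7 with H3.3 G34W (SD, n = 2 libraries each), a log2 fold change of 3.21 ± 0.40 (limma adjusted p = 2.8e-04). Arhgef5 rose to 295 ± 1.32 against 42.0 ± 21.0 units (n = 2 libraries each; 2.87 ± 0.38, limma adjusted p = 4.1e-04). Pon3 rose to 89.6 ± 9.10 against 40.6 ± 12.2 units (1.15 ± 0.25, limma adjusted p = 0.00913), and Pkp2 to 25.1 ± 5.25 against 9.38 ± 5.30 units (1.42 ± 0.35, limma adjusted p = 0.0162). On the scale of means the ratios were 8.34 for Itih2, 7.01 for Arhgef5, 2.68 for Pkp2 and 2.21 for Pon3. Pon3 and Pkp2 did not exceed their means in H3.3 WT, 98.8 and 28.6 units, and Pkp2 had 105 units with H3.3 K27R. Itih2 and Arhgef5 did exceed theirs, 21.8 and 0 units.

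Of the 6 genes with more than 3 reads in a library of each of these groups, 5 lay above 0 and Rnf128 below it, with a median of 1.42, against -0.02 over all genes. Rnf128 had 25.8 ± 14.5 against 59.4 ± 31.5 units and did not pass (-1.18 ± 0.44, limma adjusted p = 0.0848). The calls do not outlast every setting: in a fit of the compared groups alone none of the 4 passed, and with each of the 5 closest pairs of libraries counted as 1 sample only Itih2 did.

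With lysine 27 changed on H3.3 and glycine 34 intact, 1 gene was called. In H3.3 K27R over H3.3 WT, Arhgef5 was higher (2.75% of all genes were called, 1.85% higher), with 47 and 50 reads against 0 reads in H3.3 WT. It was at least 19.3-fold higher than 3 reads in 1 library would give (limma adjusted p = 3.7e-04). Pkp2 had 105 ± 19.9 units with H3.3 K27R and a mean of 28.6 with H3.3 WT and did not pass (log2 fold change 1.83 ± 0.43, limma adjusted p = 0.0532), nor did Itih2 at 80.6 ± 4.75 and 21.8 units (1.84 ± 0.49, limma adjusted p = 0.0865). Pon3 lay the other way at 47.9 ± 4.36 and 98.8 units (-1.03 ± 0.31, limma adjusted p = 0.141). With the H3.3 WT libraries counted separately 6 genes were called, 5 higher and 1 lower, and 6 likewise without either library of H3.3 G34W.

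In H3.3 G34W over H3.3 WT 1 gene was called higher and 1 lower, where 1.18% of all genes were called (0.75% higher and 0.434% lower). Arhgef5 had 29 and 52 reads against 0, at least 14.5-fold more than 3 reads in 1 library would give (limma adjusted p = 7.3e-04). D330045A20Rik was lower, with 2 reads in all with H3.3 G34W against 33 with H3.3 WT, a ratio of 0.0587 with a 95% counting interval of 0.00735 to 0.247 (limma adjusted p = 0.0445). D330045A20Rik passed the filter on low values only through the high libraries, its mean over the other 10 libraries being 8.80. Its call was lost in 13 of 27 alternatives, with adjusted p from 0.00309 to 1 over them.

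In H3.3 G34R over H3.3 WT, where 2.72% of all genes were called and 1.75% higher, only Arhgef5 of the 10 was called. It had 79 and 77 reads against 0, at least 30.7-fold more than 3 reads in 1 library would give (limma adjusted p = 3.3e-04). D330045A20Rik had 4.51 ± 1.25 units with H3.3 G34R and 15.98 with H3.3 WT and did not pass (-1.64 ± 0.65, limma adjusted p = 0.258). These last 3 comparisons share the 1 H3.3 WT sample, so the 3 calls of Arhgef5 rest on the same absence of reads, and its fitted log2 fold changes, 5.34 to 6.49, depend on the number added before the log. Over the genes with more than 3 reads on each side the median log2 fold change was 1.19 for H3.3 K27R (5 genes; all genes -0.01), -0.51 for H3.3 G34W (4 genes; all genes 0.00) and -1.10 for H3.3 G34R (5 genes; all genes -0.01).

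**Figure D3:**
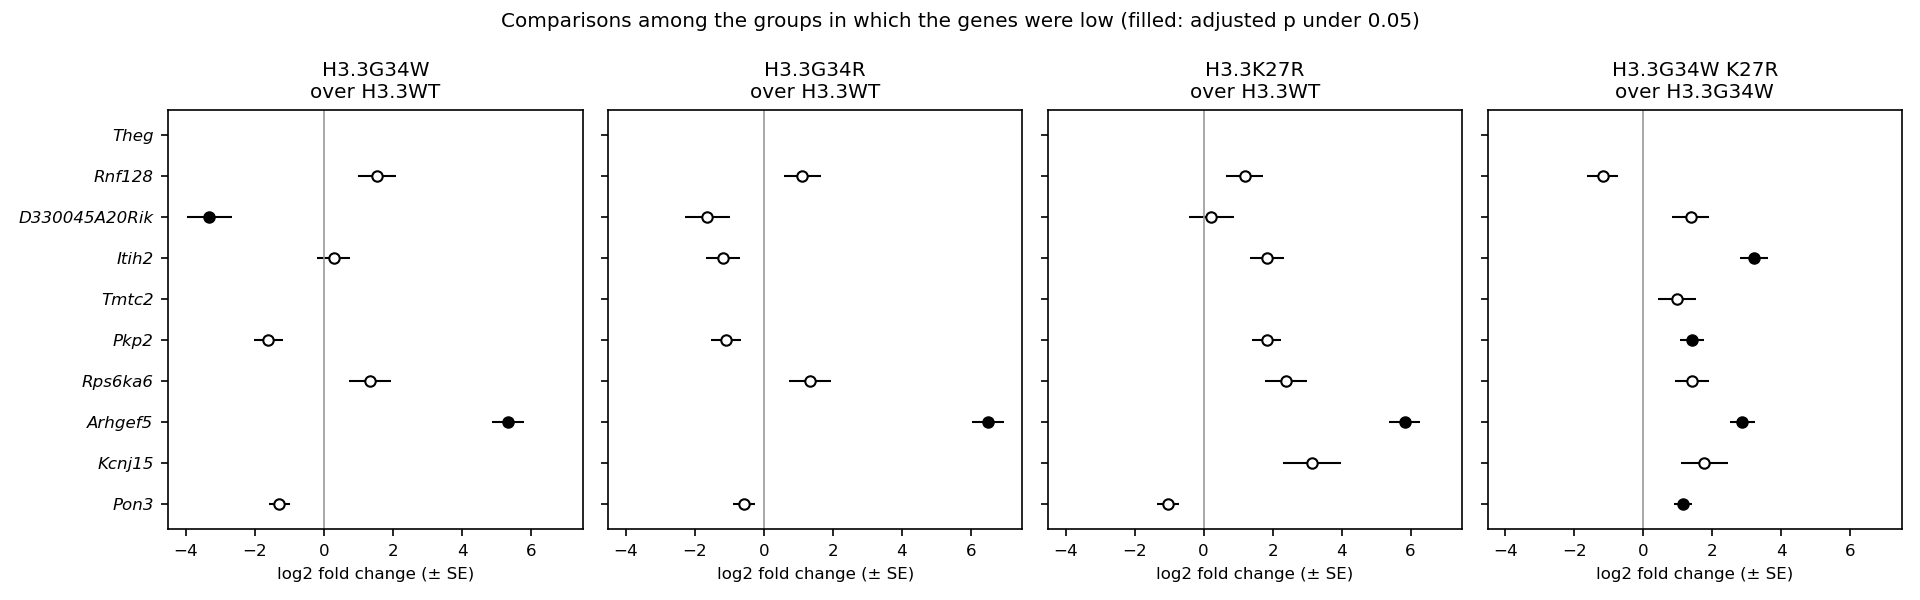
Log2 fold changes (points) with their SE (bars) in the 4 comparisons among the groups in which the genes were low; filled points have a limma adjusted p under 0.05, and a gene with no more than 3 reads in every library of a comparison is not drawn. Arhgef5 is filled in all 4 panels, and Itih2, Pkp2 and Pon3 are filled in that of H3.3 G34W K27R over H3.3 G34W.

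The log2 fold change of Arhgef5 with G34W differed between H3.1 and H3.3. On H3.1 its log2 fold change was 0.15 ± 0.38, on H3.3 it was 5.34 ± 0.46, and the difference, H3.1 minus H3.3, was -5.19 ± 0.59 (limma adjusted p = 0.0153). In units the means were 1932 (H3.1 WT), 2118 (H3.1 G34W), 0 (H3.3 WT) and 42.0 (H3.3 G34W). H3.3 WT had no read, so the size depends on the number added before the log. H3.3 G34W K36R, also an H3.3 transgene, had 1455 and 1426 units, and what sets these levels was not tested. Arhgef5 was 1 of the genes that the rule chose by them. Arhgef5 was the 1 gene of the 10 for which this difference passed, among 25 of all genes (0.197%, and 0.11% in the same direction). The call was lost in 7 of 27 alternatives, among them the fit of the 4 groups alone, with adjusted p from 0.00157 to 0.748 over them. Rnf128 had a difference of -2.76 ± 0.70 and D330045A20Rik of 2.70 ± 0.84, and neither passed (limma adjusted p = 0.204 and 0.291).

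Of the 10 genes 3 lie on the X chromosome, and a pair of them are neighbours. D330045A20Rik and Rnf128 follow each other in RefSeq order, and Rps6ka6 lies 44 tested genes from D330045A20Rik. X holds 410 of the 12580 tested genes that could be placed (3.26%). The 6 libraries lay above the other 10 without overlap for 76 of 410 X-linked genes (18.5%), for 1104 of 12170 genes elsewhere (9.07%) and for 9.34% of all genes; they lay below for 21 (5.12%), 1161 (9.54%) and 9.42%. With a gap of at least 2-fold there were 11 X-linked genes (2.68%) and 53 elsewhere (0.435%), against 0.509% of all placed genes. The counts above include the 10 genes, which the rule chose to lie above. Without them the genes with a 2-fold gap were 8 on X and 46 elsewhere. Genes of a chromosome share libraries and may share regulation, and no test was made.

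Around the adjacent pair a run of genes had higher values in the 6 libraries. Of the 9 tested genes from Fam199x to Prps1, ends that were set after the values were seen, 7 lay above without overlap, or 5 of 7 without the pair, which the rule chose to lie above. Mum1l1 had 1299 to 2433 units in the 6 libraries and 232 to 479 in the 10. Tbc1d8b had 2814 to 4643 and 979.9 to 1993 units, Morc4 1049.5 to 1242 and 197 to 621 units, and Rbm41 744 to 1193 and 445 to 634 units. Esx1 and Prps1 overlapped, and no other gene of the run met the ratio of 4 that the rule asked for. Beside Rps6ka6, Hdx had 20.5 to 113 units in the 6 libraries and 0 to 14.5 in the 10.

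**Figure D4:**
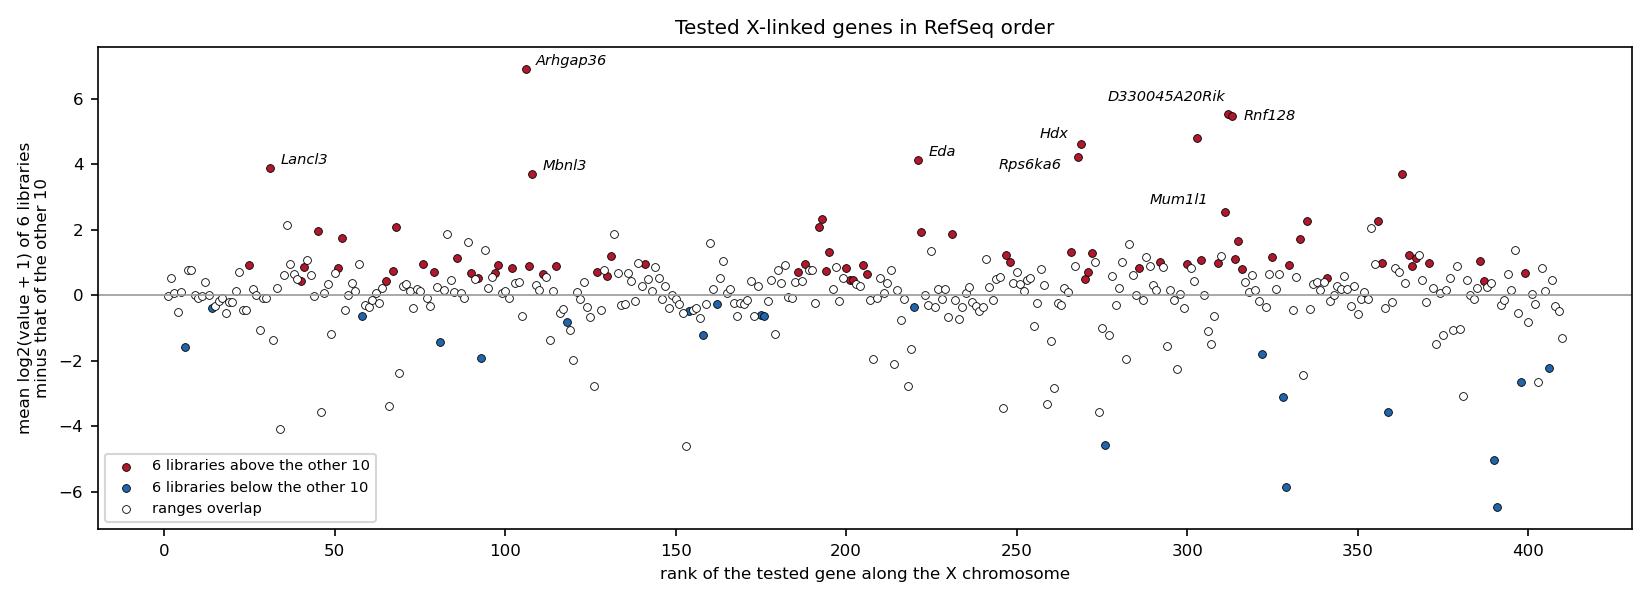
Mean log2(value + 1) of the 6 libraries minus that of the other 10 for the 410 tested X-linked genes in RefSeq order; red and blue mark genes whose 6 libraries lay above or below the other 10 without overlap. Red points (76, among them 3 that the rule chose to lie above) outnumber blue ones (21), and D330045A20Rik and Rnf128 lie side by side.

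Neighbours were counted for every gene. Over the 5 nearest tested genes on each side of the 10, 90 distinct genes that are not among them, the 6 libraries lay above the other 10 for 20 (22.2%, against 9.34% of all genes) and below for 6 (6.67%, against 9.42%). Around the 3 X-linked genes 10 of 20 lay above and 0 below, and around the other 7 genes 10 of 70 (14.3%) lay above and 6 (8.57%) below. Arhgef5, Kcnj15, Pkp2, Pon3 and Tmtc2 had 1 such neighbour above among 10, Theg had 2 and Itih2 had 3. Pon3 stands in a cluster of paraoxonase genes, and its neighbour Pon2 had 1001 to 1885 units in the 6 libraries and 633 to 1197 in the 10, with overlap. Near Itih2, Gata3, a transcription factor gene, had 145 to 312 and 33.8 to 61.1 units, and Sfmbt2, a Polycomb-group gene, had 406 to 813 and 108 to 218 units, while Il15ra, an interleukin 15 receptor gene, lay below at 9.10 to 34.4 and 77.6 to 347 units. Near Theg, Slc1a6, a glutamate transporter gene, had 504 to 1083.5 and 31.3 to 250.4 units, and Gm16517, a provisional gene, lay below at 538 to 922 and 1332 to 2178 units. Whether the deposited values were counted by strand is not given in the sources used here; genes that RefSeq places over Kcnj15, Theg or Tmtc2 are noncoding or a pseudogene.

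**Figure D5:**
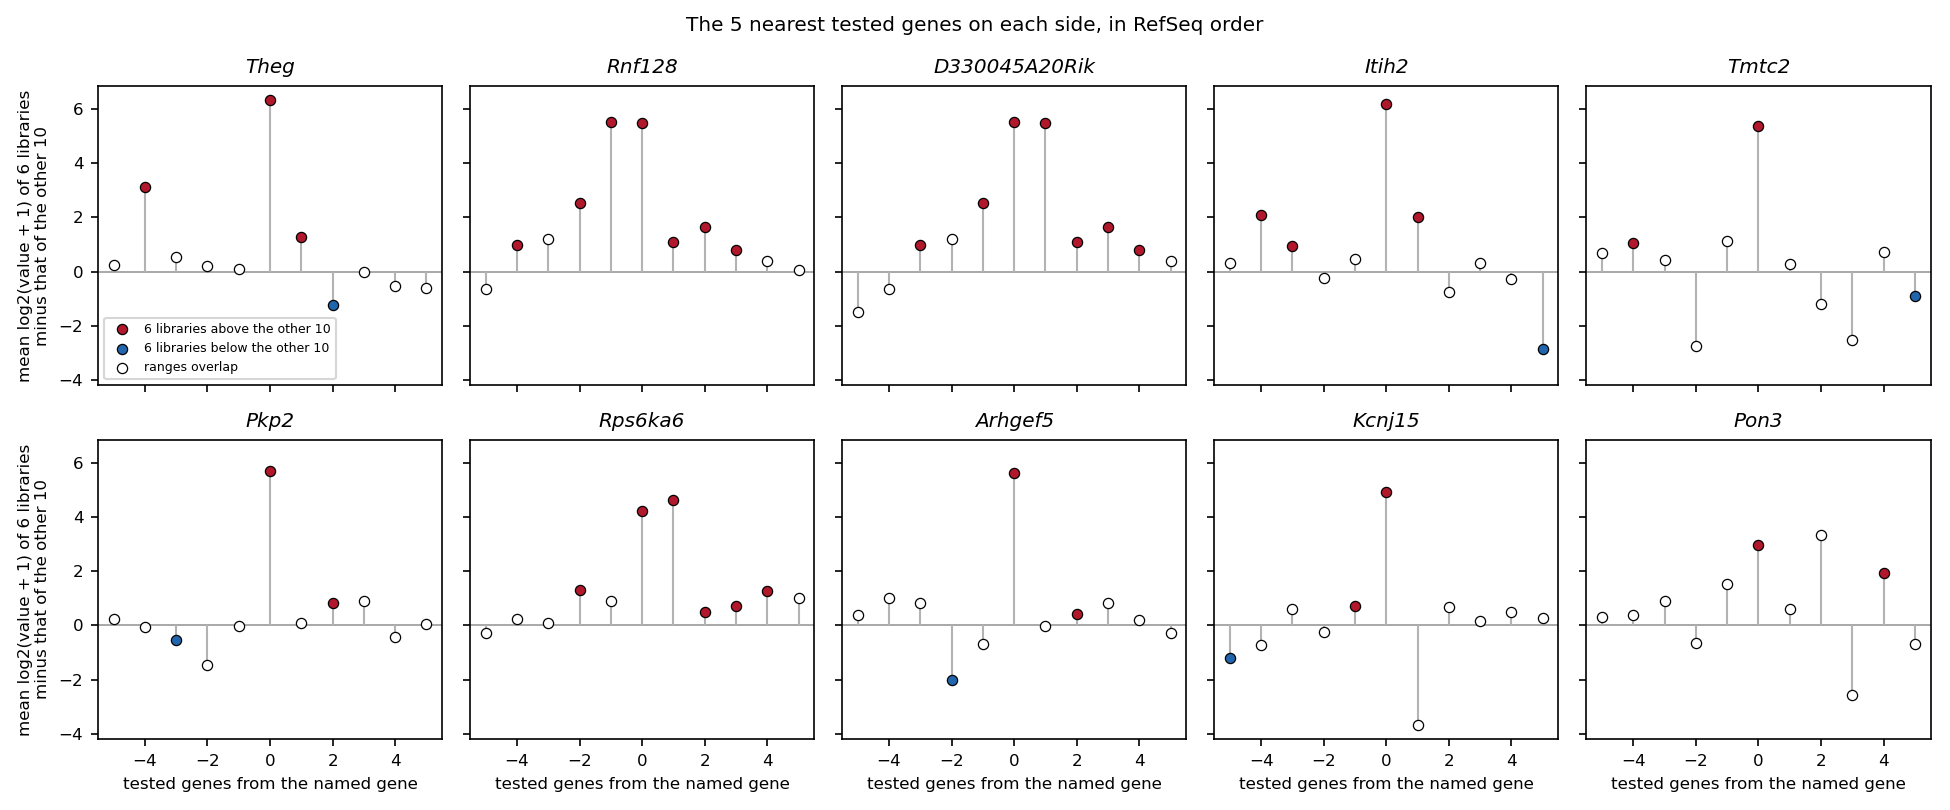
For each of the 10 genes (at 0 on the horizontal axis), mean log2(value + 1) of the 6 libraries minus that of the other 10 for the gene and its 5 nearest tested genes on each side; colours mark genes without overlap. D330045A20Rik and Rnf128 have 6 neighbours above: each counts the other, which the rule chose to lie above, and they share the remaining 5. Rps6ka6 has 5, and Arhgef5, Kcnj15, Pkp2, Pon3 and Tmtc2 have 1.

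Close relatives of the 10 genes were divided in some cases and overlapped in others. Of the plakophilins, Pkp1 ran the other way, with 1.54 to 8.82 units in the 6 libraries and 22.5 to 1139 in the 10, and Pkp4 overlapped at 1993 to 4394 and 2177 to 4232 units. Of the S6 kinases, Rps6ka2 had 948 to 2401 and 402 to 761 units, without overlap, while Rps6ka1, Rps6ka3, Rps6ka4 and Rps6ka5 overlapped. Of the transmembrane RING ligases, Rnf149 had 1266.5 to 1769 and 796 to 1139.7 units, and Rnf130 ran the other way at 53.1 to 165 and 455 to 1328 units. Tmtc1, Tmtc3 and Tmtc4 overlapped, and none of the other 4 genes of the Itih family passed the filter on low values, Itih5 having 2.93 to 21.2 units in the 6 libraries and 0 to 2.82 in the 10. Of 12 desmosome genes other than plakophilins, only 2 were tested. Perp had 563 to 1501 and 13.3 to 381 units, and Jup, plakoglobin, overlapped at 9.77 to 78.5 and 36.6 to 355 units. The rest, among them Dsp at no more than 5.84 units in any library, did not pass the filter on low values. These families were picked after the members' values were known.

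Of 10 marker and 9 pathway lists, 1 held a gene of the 10, the list of ion channel genes, which holds Kcnj15. Of its 20 genes 8 were tested. Their median log2 difference, the 6 libraries minus the 10, was 0.02. Besides Kcnj15, Cacna1c lay above without overlap, at 852 to 2106 and 161 to 772 units. Cacna1g lay below, at 12.9 to 763 and 2092 to 5626 units. In H3.3 G34W K36R over H3.1 WT, 5 of the 8 were called higher and 0 lower: Cacna1d, Cacna1g, Cacna1h, Cacna2d1 and Kcnj2. The list median was 1.63, against 0.00 over all genes. Of all genes 25.4% were called, here and below counted in either direction. Lists that hold none of the 10 had calls there too, among them 10 of 15 complement and coagulation genes and 10 of 18 proteoglycan and matricellular genes, all higher. In H3.3 G34W K36R over H3.1 G34W 4 were called higher, the same without Cacna2d1 (3.17% of all genes called), and in H3.3 G34W K27R over H3.3 G34W 3 were called lower, Cacna1d, Cacna1h and Kcnj2 (21.6% of all genes called). Kcnj15 itself was not called in any comparison; its value with H3.3 G34W K27R was 7.53 ± 1.88 units, against 1.84 ± 1.96 with H3.3 G34W.

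The endogenous genes for H3.3 were present in every library, H3f3a at 11351 to 17229.8 units in the 6 and 11943 to 24461 in the 10. Reads of the transgenes cannot be told apart from them in these values.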

How the data were processed

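Polyadenylated RNA of 16 libraries was sequenced. Per the submitters' processing notes the authors used RSEM 1.2.4 with the genome build mm9; the aligner, annotation and strand setting are not given in the sources used here. The deposited table holds a median-normalised signal per gene and library, not whole counts. Each library's values are multiples of 1 step, which gave depth and reads, but only 41.7% to 47.6% of values above 0 were within 0.01 of a whole read, so no count model was used. Intervals and floors cover counting error only.

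Genes with a mean of at least 10 were tested as log2(value + 1) with limma 3.58.1 (R 4.3.3; statmod 1.5.0; eBayes with its trend and robust options), all groups in 1 fit of 15 samples with 7 residual degrees of freedom, called at a Benjamini-Hochberg adjusted p under 0.05. In 3 simulations of H3.3 G34W K36R over H3.1 WT on 12670 genes it recovered 40% to 58% of 2-fold increases, 92% of 4-fold and 94% to 96% of 8-fold changes. The simulations gave each gene the same spread in every group. The real pairs did not have this, with chi-square per degree of freedom of 225.5 for H3.1 WT and 1.75 for H3.3 G34W K36R. The rates therefore need not hold for this comparison. No libraries were left out. Alternatives were other pseudocounts (0.5 and 5), no filter, a minimum mean of 50, quantile normalization, TMM rescaling, eBayes with neither of its options, fits of the compared groups alone, H3.3 WT counted separately, each of the 5 closest pairs as 1 sample, a replicate block, and each library left out. Over 28 pairs of groups the correlation of same-numbered replicates' deviations ran from -0.265 to 0.0598, so the numbers pair nothing.

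The members, lists and tests were chosen with earlier results of these data known, and the test of G34W on H3.1 against G34W on H3.3 was added after these values were seen. The genes named are the members, those next to the thresholds, members' neighbours and relatives, and list genes called. Theg and Pkp2 had no promoter in the table used here.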

Additional observations from a re-analysis of the deposited data

Results flagged for a closer look

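Arhgef5 was picked out because its log2 fold change with G34W differed between H3.1 and H3.3. The difference of the log2 fold changes, H3.1 minus H3.3, was -5.19 ± 0.59 (limma adjusted p = 0.0153). Its values were 2631 and 1605 units with H3.1 G34W and 2474 and 1389 with H3.1 WT, and 27.2 and 56.9 units with H3.3 G34W, against 0 in both libraries of H3.3 WT. Because those 2 libraries have no read, the size depends on the number added before the log. Groups of 2 libraries are too small to ask whether 1 library stands apart from the rest of its group.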

How the results depend on the processing

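None of the log2 fold changes of called members that were tested again changed sign under the alternatives run, nor did the difference for Arhgef5. Counts of called members have no sign to reverse, and how far they moved is given here. The count of called members in H3.1 G34W over H3.1 WT was 0 under all 27. In H3.3 G34W K36R over H3.1 WT (2 members called) it was 4 in a fit of the compared groups alone and 0 with the 5 closest pairs each as 1 sample; leaving out a library gave 0 to 2, with 1 without H3.1 WT replicate 1 and 0 without H3.1 WT replicate 2 or either H3.3 G34W K36R library. In H3.3 G34W K36R over H3.1 G34W (0) leaving out a library gave 0 to 1, the 1 without either H3.3 G34W library. In H3.3 G34W over H3.3 WT (2) it was 1 with a pseudocount of 0.5, no filter or a minimum mean of 50, 0 in the compared groups alone or with close pairs as 1 sample, and 5 with H3.3 WT counted separately; leaving out a library gave 1 to 6, with 6 without H3.3 G34W replicate 2 and 1 without either library of H3.3 G34W K36R, H3.3 G34R, H3.3 K27R or H3.3 G34W K27R. In H3.3 G34R over H3.3 WT (1) it was 6 (2 higher and 4 lower, against 1 and 0) in the compared groups alone and 0 with close pairs as 1 sample; leaving out a library gave 1 to 2, with 2 without either H3.3 G34W library. In H3.3 K27R over H3.3 WT (1) it was 2 with a pseudocount of 5 or eBayes without trend and robust, 3 with quantile normalization, 7 in the compared groups alone, 6 with H3.3 WT counted separately and 0 with close pairs as 1 sample; leaving out a library gave 1 to 6, with 2 without either H3.1 G34W library or H3.3 G34R replicate 2, 3 without H3.3 WT replicate 1 and 6 without either H3.3 G34W library. In H3.3 G34W K27R over H3.3 G34W (4) it was 0 in the compared groups alone and 1 with close pairs as 1 sample; leaving out a library gave 3 to 7, with 7 without H3.3 G34W replicate 2. The difference of G34W effects on Arhgef5 (-5.19), whose alternatives were added after seeing the data, ran from -6.17 to -3.01; its call was lost with a pseudocount of 5 (adjusted p = 0.0667), in its 4 groups alone (0.748), with close pairs as 1 sample (0.71) and without either library of H3.3 G34W K36R or H3.3 G34W K27R (0.0507 to 0.0531). The cause of these shifts was not tested. The replicate block, with H3.3 WT counted separately, gave 4 for H3.3 G34W over H3.3 WT, 2 for H3.3 G34R over H3.3 WT and 6 for H3.3 K27R over H3.3 WT, and moved no other count by over 1.5 times.

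The rule gave 5 genes at a ratio of at least 6, 6 genes at a lowest value of at least 100, and 10 to 14 with a library left out. Over all genes, the number called across the alternatives ran from 0 to 2473 (H3.1 G34W over H3.1 WT), 0 to 4836 (H3.3 G34W K36R over H3.1 WT), 0 to 1727 (over H3.1 G34W), 0 to 1525 (H3.3 G34W over H3.3 WT), 0 to 7687 (H3.3 G34R), 0 to 7019 (H3.3 K27R) and 347 to 3512 (H3.3 G34W K27R over H3.3 G34W). Where a group kept 1 library, its spread was taken from the other groups. Depth limits the low side: 3 of the 10 members had no more than 3 reads in any library of H3.3 G34W or H3.3 WT.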
